A study of Flaveria angustifolia and Flaveria bidentis and Flaveria brownii with 21 samples.

Results

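The 10 genes described here encode the core enzymes and the transporter that take leaf starch apart: GWD1 (AT1G10760), PWD (AT5G26570), SEX4 (AT3G52180), BAM1 (AT3G23920), BAM2 (AT4G00490), BAM3 (AT4G17090), BAM4 (AT5G55700), DPE1 (AT5G64860), DPE2 (AT2G40840) and MEX1 (AT5G17520). They were chosen by Arabidopsis locus, for their known roles, from a leaf RNA-seq table of 20551 loci. Earlier results of these data were known at that choice. All 10 were in the table and above 0 in each of 18 libraries, and all 10 passed the filter of a mean of 2 RPM (reads per 1e+06 assigned reads). The series was collected to build a tree of the genus Flaveria (Asteraceae), and it allows leaves of different age and species of different photosynthetic type to be set side by side. It holds 21 samples, of which 3 out-group samples were not analysed here.

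The 18 libraries came from greenhouse plants of 11 species, with no treatment named in the labels. Each library pooled leaves of several plants. Each combination of species and leaf stage had 1 library, so the spread between plants of a species was not measured. Juvenile leaves, which had only begun to expand, gave 10 libraries, and mature leaves, the youngest that were fully expanded, gave 8. Photosynthetic types were assigned from textbook knowledge and are not labels. The C3 species were F. pringlei and F. cronquistii. The intermediates, called C3-C4, were F. sonorensis, F. pubescens and F. angustifolia. The C4-like species were F. vaginata, F. palmeri and F. brownii, and the C4 species were F. trinervia, F. kochiana and F. bidentis. Both stages were present in 7 species. F. sonorensis, F. palmeri and F. vaginata had a juvenile library alone and F. kochiana a mature library alone.

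Leaves store part of the carbon fixed by day as starch granules in the chloroplast and degrade it at night. The dikinases GWD1 and PWD add phosphate to the granule surface, which loosens it, and the phosphatase SEX4 takes the phosphate off again so that degradation can proceed. Beta-amylases then cut maltose from the chain ends: BAM1 and BAM3 are the active plastid enzymes of Arabidopsis, BAM2 has a minor role there, and BAM4 is a catalytically inactive relative that acts as a regulator. DPE1 recycles the short maltotriose left over in the plastid, MEX1 carries maltose across the chloroplast envelope, and DPE2 uses that maltose in the cytosol on the way to sucrose. In species with the C4 pathway carbon fixation is divided between mesophyll and bundle sheath cells, and starch is stored mostly in the bundle sheath. The roles come from Arabidopsis and were not measured in Flaveria.

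Depth ran from 5.40 to 9.15 M assigned reads per library (M, 1e+06 reads), so a value resting on 3 reads lay between 0.328 and 0.556 RPM. The least covered value among the 10 genes was SEX4 in juvenile F. sonorensis, with 18 reads or 2.39 RPM (95% exact Clopper-Pearson interval 1.41 to 3.77, counting error only). The labelled tissue was checked on leaf markers, and RBCS1A, which encodes the small subunit of Rubisco, lay between 1661 and 26630 RPM. Of the other cell types, 3 markers of dividing cells (AUR1, MCM2, CYCB1;1) summed to 21.8 to 90.9 RPM in juvenile leaves and 0.323 to 9.72 RPM in mature leaves, with CYCB1;1 at 0 in 7 libraries. The 4 phloem companion cell markers summed to 122.2 to 318.4 RPM in juvenile and 143.7 to 835.3 RPM in mature leaves. The 3 senescence markers (SAG12, SEN1, ORE1) summed to 2.96 to 50.5 RPM in juvenile and 30.3 to 875.7 RPM in mature leaves. The 3 meristem and flower markers summed to at most 10.7 RPM in any library, and STM was at 0 in 13 libraries. Between stages in limma, both tested markers of dividing cells were lower in mature leaves and both tested senescence markers higher. Of 4 phloem markers 3 were higher and 1 was lower, and of 3 leaf markers 1 was higher. Over all tested loci 12.7% were higher and 37.6% lower. The part of these markers in the results below was not tested. RPM is not scaled to transcript length, so levels are compared between libraries and not between genes.

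Leaf age was compared in the 14 libraries of the 7 species with both stages. In mature leaves the beta-amylase genes BAM1 and BAM3 were higher in every species, on average by 1.35 and 1.07 on the log2 scale. For BAM3 the 95% exact intervals of the stages, which cover counting error only, overlapped in F. bidentis and F. trinervia. DPE1 fell in every species, by 1.62 on the log2 scale. BAM2, DPE2, MEX1 and PWD were also lower in the RPM values as deposited, by smaller amounts that no longer passed the test after TMM scaling, a correction for the composition of each library. GWD1, SEX4 and BAM4 did not pass the test under either scaling.

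In limma, with species as a block and Benjamini-Hochberg adjustment over all 14500 loci tested, 7 of the 10 genes passed, 2 of them higher and 5 lower in mature leaves. The background was high, since 50.3% of all tested loci passed, 12.7% of them higher and 37.6% lower as shares of the tested loci. The median of all loci was -0.31 on the log2 scale in this comparison and -0.0016 after TMM scaling. The split of all calls moved with it, from 1843 higher and 5448 lower to 3354 higher and 3188 lower. The median of the 10 genes was -0.56 as deposited and -0.22 with TMM scaling. With TMM scaling 3 of the 10 genes passed, BAM1, BAM3 and DPE1, where 6542 of 14500 loci did. Without the species block 2 of the 10 passed, BAM1 and DPE1, where 3840 of 14500 loci did. Without F. pringlei 4 of the 10 passed, where 6023 of 14494 loci did.

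**Figure D1:**
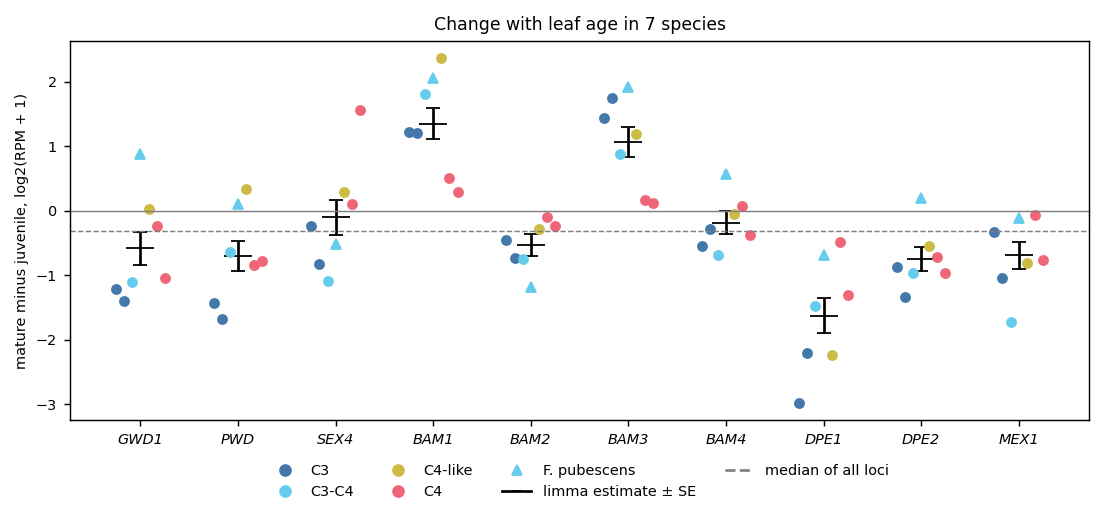
Change of each of the 10 genes from juvenile to mature leaf on the log2(RPM + 1) scale, with 1 point per species for the 7 species that had both stages (triangle, F. pubescens), the limma estimate ± SE in black and the median of all loci, -0.31, as a dashed line. All points of BAM1 and BAM3 lie above 0 and all points of DPE1, MEX1 and BAM2 lie below 0, while GWD1, PWD, SEX4, BAM4 and DPE2 have points on both sides.

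BAM1, the redox-regulated plastid beta-amylase, measured 64.4, 196.0 and 269.4 RPM as the lowest, median and highest of the 10 juvenile libraries, and 240.1, 317.5 and 889.0 RPM in the 8 mature libraries. In F. cronquistii it went from 102.6 to 240.1 RPM, in F. pringlei from 198.2 to 457.1, in F. angustifolia from 193.8 to 680.4 and in F. pubescens from 64.4 to 272.6. In F. brownii it went from 171.5 to 889.0 RPM, in F. bidentis from 219.2 to 313.3 and in F. trinervia from 202.0 to 248.0. The stages of these 7 species did not overlap, which held in the same direction for 0.772% of all tested loci. Juvenile F. vaginata, which had no mature partner, was above the lowest mature libraries. Across the paired species the mean was 164.5 ± 58.2 RPM in juvenile and 442.9 ± 251.8 RPM in mature leaves (SD, n = 7). The rise of 1.35 ± 0.24 on the log2 scale (SE, limma adjusted p = 0.000727) was higher in 7 of 7 species, and the exact two-sided sign-flip test over species gave p = 0.0156, the smallest that 7 species allow. The size of the rise differed widely, from 1.23-fold in F. trinervia to 5.19-fold in F. brownii. In these bulk leaves a change in the share of a cell type and a change in the RNA per cell cannot be told apart.

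BAM3, the other active plastid beta-amylase, measured 11.5, 52.5 and 87.8 RPM as the lowest, median and highest juvenile values and 46.2, 87.7 and 201.7 RPM as the mature ones. The stages overlapped, because juvenile leaves of C4 and C4-like species were already as high as mature leaves of several other species. Within each species mature leaves were higher, from 1.09-fold in F. trinervia, where 81.7 became 88.7 RPM, to 4.04-fold in F. pubescens, where 11.5 became 46.2 RPM. The mean went from 49.2 ± 30.1 to 96.0 ± 52.7 RPM (SD, n = 7). The rise was 1.07 ± 0.23 on the log2 scale (SE, limma adjusted p = 0.00247), and the exact sign-flip test gave p = 0.0156. Mature F. brownii had the highest value of both BAM1 and BAM3 and also the highest summed senescence markers, 875.7 RPM. Of that sum SAG12, a protease of senescing leaves, made up 865.0 RPM. SEN1 was 9.53 RPM in that library, where the mature libraries held 5.14 to 77.9 RPM (median 33.3). ORE1 was 1.155 RPM, its highest mature value. With each species left out in turn, F. brownii included, BAM1 ranged from 1.18 to 1.53 and BAM3 from 0.92 to 1.22 on the log2 scale, and both passed the test in all 7 fits.

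BAM2 and BAM4 did not follow them. BAM2 measured 8.89, 20.5 and 26.8 RPM as the lowest, median and highest juvenile values and 6.24, 12.6 and 25 RPM as the mature ones. It was lower in mature leaves of 7 of 7 species, with a change of -0.53 ± 0.18 on the log2 scale as deposited (SE, limma adjusted p = 0.0241) and -0.21 with TMM scaling (adjusted p = 0.306). The stages overlapped, and the call was lost without F. angustifolia, F. pringlei or F. pubescens (adjusted p = 0.0563, 0.0613 and 0.0719). BAM4 measured 12.6, 19.1 and 32.3 RPM in juvenile and 8.23, 16.1 and 29.9 RPM in mature leaves, a difference of -0.19 ± 0.18 on the log2 scale (SE, limma adjusted p = 0.410). Reads of near-identical family members could have been split between these loci in the authors' assignment, so values of single BAM genes are uncertain to that extent.

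DPE1, the plastid enzyme that recycles maltotriose, measured 36.2, 59.0 and 71.7 RPM as the lowest, median and highest juvenile values and 4.95, 17.7 and 50.5 RPM as the mature ones. The steepest difference was in F. cronquistii, from 45.9 to 4.95 RPM, where the mature value rests on 27 reads (95% exact interval 3.26 to 7.21 RPM). F. brownii followed, from 41.9 to 8.08 RPM, and the C4 species F. bidentis differed least, from 70.8 to 50.5 RPM. Only mature F. bidentis and F. kochiana, with 50.5 and 44.0 RPM, lay inside the juvenile range. The change was -1.62 ± 0.27 on the log2 scale (SE, limma adjusted p = 0.000492), lower in 7 of 7 species, with an exact sign-flip p of 0.0156. With each species left out in turn the change ranged from -1.81 to -1.40 and passed in all 7 fits, and with TMM scaling it was -1.29 (adjusted p = 0.00406).

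The genes that export and use maltose moved less. MEX1, the maltose exporter, measured 7.75, 17.3 and 31.0 RPM in juvenile leaves and 4.03, 7.46 and 29.6 RPM in mature leaves as lowest, median and highest. It was lower in mature leaves of 7 of 7 species, with a change of -0.69 ± 0.21 on the log2 scale as deposited (limma adjusted p = 0.0174) and -0.37 with TMM scaling (adjusted p = 0.177). The call was lost without F. pringlei (adjusted p = 0.0511). In F. bidentis MEX1 hardly differed, at 31.0 and 29.6 RPM. DPE2, the cytosolic enzyme that uses maltose, measured 57.0, 90.0 and 288.9 RPM in juvenile and 33.6, 62.8 and 157.4 RPM in mature leaves. Its change was -0.74 ± 0.18 as deposited (limma adjusted p = 0.00525) and -0.40 with TMM scaling (adjusted p = 0.0948). It was lower in 6 of 7 species, the exception being F. pubescens, where 94.1 became 107.7 RPM. The stages overlapped for both genes.

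The genes of the phosphate cycle had stage differences of mixed sign. GWD1, which starts the attack on the granule, measured 75.1, 142.0 and 256.1 RPM in juvenile and 55.7, 106.0 and 279.7 RPM in mature leaves as lowest, median and highest. Its change was -0.58 ± 0.26 on the log2 scale (SE, limma adjusted p = 0.0745). In F. pubescens it went the other way, from 106.2 to 196.3 RPM, and without that species the change was -0.83 and passed (adjusted p = 0.00977). PWD, the second dikinase, measured 22.01, 39.3 and 79.1 RPM in juvenile and 16.01, 27.6 and 44.7 RPM in mature leaves. It passed as deposited, with -0.70 ± 0.24 (limma adjusted p = 0.0265), but not with TMM scaling (-0.37, adjusted p = 0.208), and 4 of the 7 fits that left out a species lost it (without F. bidentis, F. cronquistii, F. pringlei or F. trinervia). SEX4, the phosphatase, measured 2.39, 12.3 and 23.3 RPM in juvenile and 5.0, 12.4 and 21.3 RPM in mature leaves, with no common direction (-0.10 ± 0.27, adjusted p = 0.781).

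**Figure D2:**
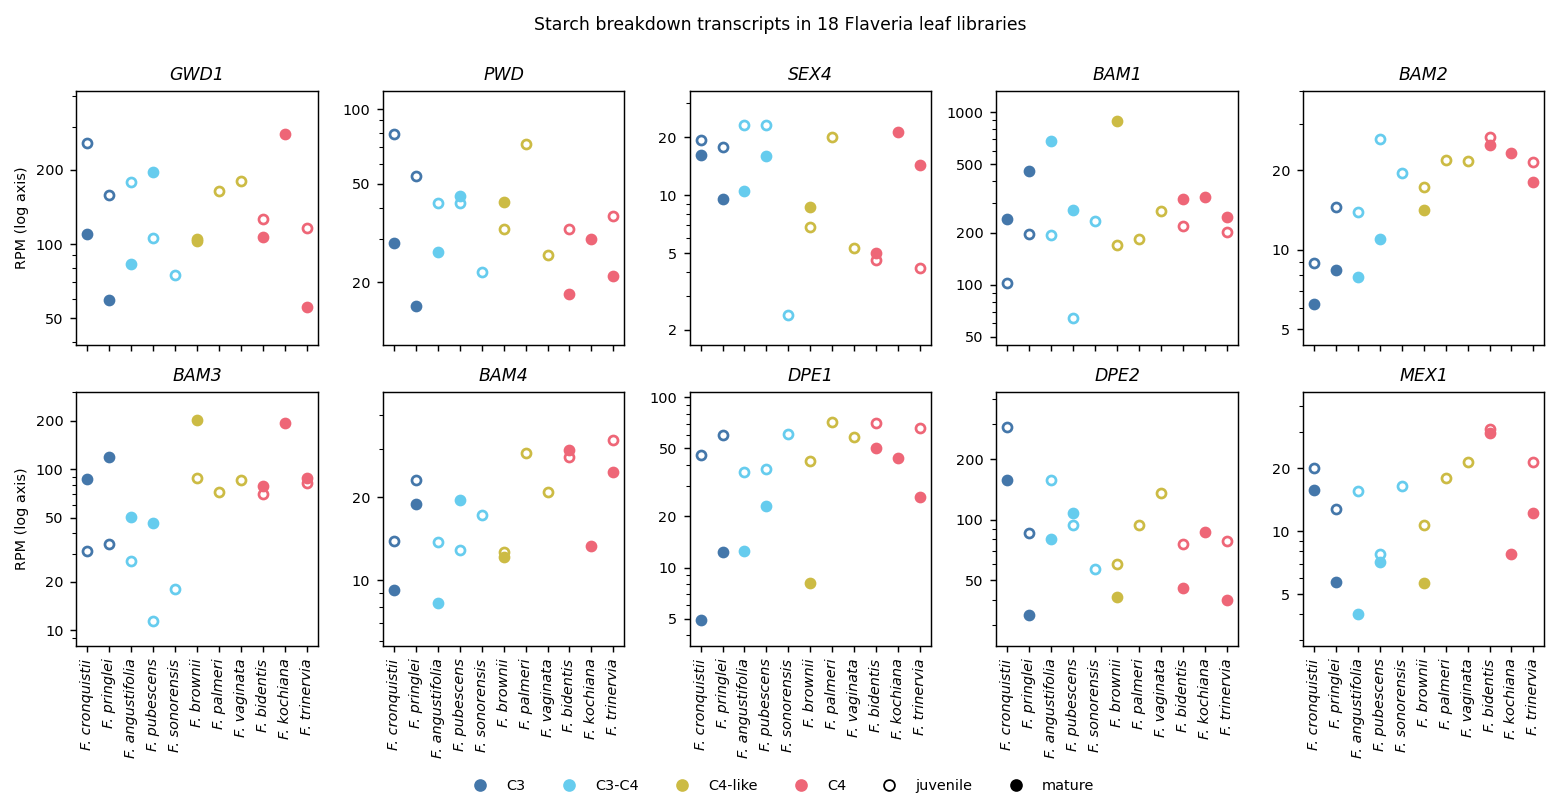
RPM of each of the 10 genes in all 18 libraries on log axes, with 1 position per species, open points for juvenile and filled points for mature leaves, and colour for photosynthetic type. BAM1 spans 64.4 to 889.0 RPM and SEX4 spans 2.39 to 23.3 RPM, and the mature libraries lie above the juvenile ones within every species for BAM1 and BAM3.

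Shares within a library do not depend on how libraries are scaled to each other. They are shares of reads, not scaled to transcript length, and are compared between libraries and not between genes. The 10 genes summed to 425.6 to 865.9 RPM in juvenile leaves (median 673.2) and 548.7 to 1328 RPM in mature leaves (median 741.9). BAM1 and BAM3 together took 15.5 to 48.4% of that sum in juvenile leaves (median 38.8%) and 42.8 to 82.1% in mature leaves (median 58.6%), and their share was higher in the mature leaf of 7 of 7 species. The phosphate step of GWD1, PWD and SEX4 took a median of 30.2% in juvenile and 17.5% in mature leaves. The maltose step of DPE1, DPE2 and MEX1 took a median of 25.7% in juvenile and 13.9% in mature leaves. Both shares were higher in the mature leaf of 0 of 7 species. BAM1 alone took a median of 30.3% in juvenile and 44.9% in mature leaves, and DPE1 alone 8.99% and 2.38%. Since these are shares of 1 sum, a higher share of some genes lowers that of the others, and no separate test was made.

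**Figure D3:**
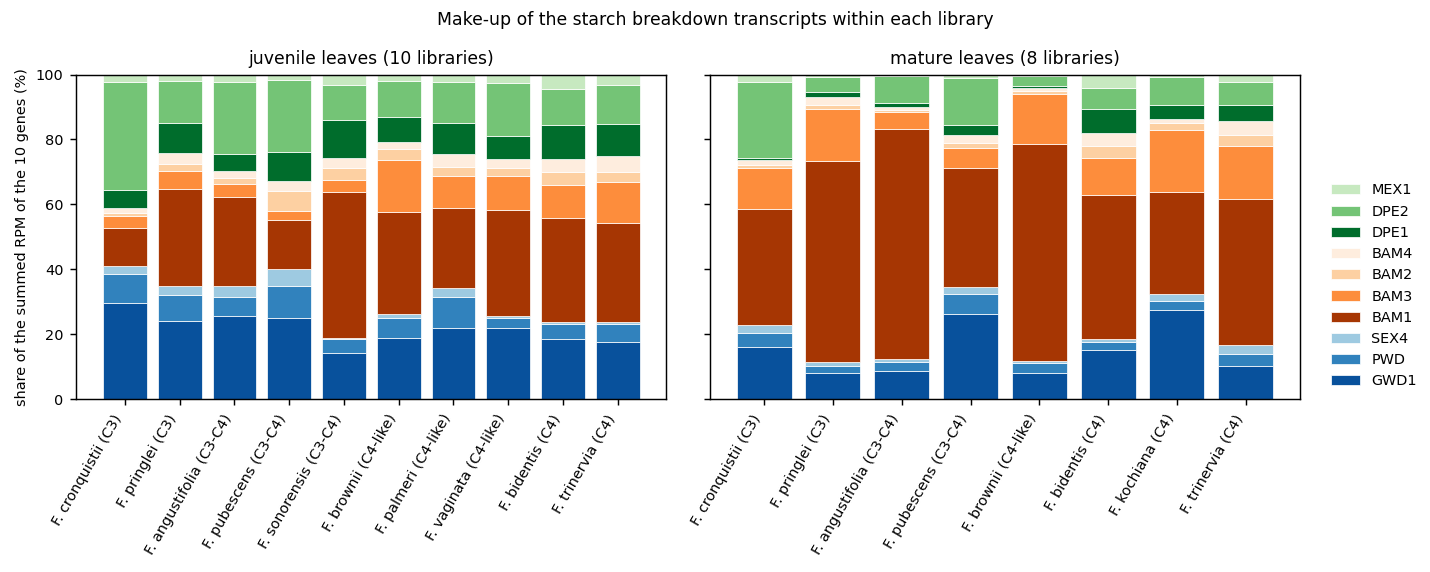
Share of the summed RPM of the 10 genes, in percent, taken by each gene in each of the 18 libraries, with the phosphate genes in blue, the beta-amylases in brown to orange and the maltose genes in green. The segments of BAM1 and BAM3 together are larger in the mature than in the juvenile leaf of all 7 species with both stages, and reaches 82.1% in mature F. brownii.

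Photosynthetic types were then compared in limma over all 18 libraries, adjusting for stage and treating species as a random block. BAM3 was higher in the C4 and C4-like species than in the C3 and C3-C4 species, by 1.35 ± 0.29 on the log2 scale (SE, adjusted p = 0.0218). It was the only gene of the 10 to pass, where 0.974% of 14479 loci passed in that direction and 1.4% in either. The call was lost without F. cronquistii (1.28, adjusted p = 0.126) or F. vaginata (1.34, adjusted p = 0.0558) and held in the other 9 of 11 fits that left out a species. In the same contrast 2 of 3 leaf markers were lower, RBCS1A with a difference of -2.25 on the log2 scale (adjusted p = 0.00902), and 1 of 4 phloem markers, and their part in the BAM3 result was not tested. F. brownii (C4-like) and F. pubescens (C3-C4) are known to belong to the same clade of the genus. Their BAM3 was 87.8 against 11.5 RPM in juvenile and 201.7 against 46.2 RPM in mature leaves, each value from 1 library. Ancestry was not modelled, and its part in the BAM3 difference between types was not tested.

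The difference in BAM3 was clearest in juvenile leaves. The C4 and C4-like juvenile libraries measured 70.4 (F. bidentis), 72.7 (F. palmeri), 81.7 (F. trinervia), 85.3 (F. vaginata) and 87.8 RPM (F. brownii). The C3 and C3-C4 juvenile libraries measured 11.5 (F. pubescens), 18.2 (F. sonorensis), 27.0 (F. angustifolia), 31.3 (F. cronquistii) and 34.6 RPM (F. pringlei). These groups did not overlap, which held in the same direction for 0.949% of loci tested and in the opposite direction for 0.874%. In juvenile leaves alone the difference was 1.66 ± 0.26 on the log2 scale (limma adjusted p = 0.0289). In mature leaves the groups overlapped. The C4 and C4-like libraries measured 79.2 (F. bidentis), 88.7 (F. trinervia), 193.0 (F. kochiana) and 201.7 RPM (F. brownii), and the others measured 46.2 (F. pubescens), 50.5 (F. angustifolia), 86.8 (F. cronquistii) and 118.5 RPM (F. pringlei).

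**Figure D4:**
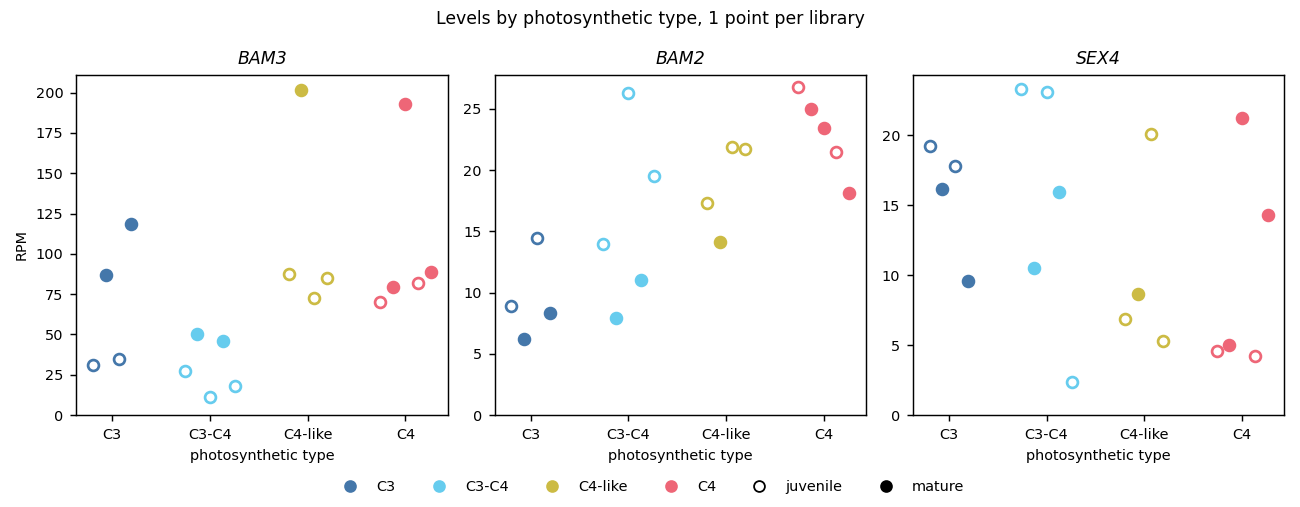
RPM of BAM3, BAM2 and SEX4 by photosynthetic type on a linear axis that starts at 0, with 1 point per library, open for juvenile and filled for mature leaves. BAM3 in juvenile leaves lies between 70.4 and 87.8 RPM in C4 and C4-like species and between 11.5 and 34.6 RPM in C3 and C3-C4 species.

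The order of the types for BAM3 was not an even series from C3 to C4. Averaged per species over the stages it had, BAM3 was 67.8 ± 12.4 RPM in C3 (SD, n = 2), 28.6 ± 10.3 in C3-C4 (n = 3), 100.9 ± 38.5 in C4-like (n = 3) and 117.7 ± 65.4 RPM in C4 species (n = 3). The C3-C4 intermediates were the lowest, and C4-like and C4 species did not differ beyond their spread. Against C3, the difference was 0.65 ± 0.43 for C4 (limma adjusted p = 0.532), 1.07 ± 0.44 for C4-like (adjusted p = 0.659) and -0.99 ± 0.43 for C3-C4 species (adjusted p = 0.957). These means mix species with 1 and with both stages, which matters here because BAM3 differed by stage.

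BAM2 showed the ordered pattern in its means but did not pass the test. Its species means were 9.49 ± 2.73 RPM in C3 (SD, n = 2), 16.4 ± 4.72 in C3-C4 (n = 3), 19.8 ± 3.49 in C4-like (n = 3) and 23.0 ± 3.05 RPM in C4 (n = 3). The C3 mean was below the C3-C4 mean by more than the SD of either, and the other neighbours differed by less than the larger SD. These means also mix species with 1 and with both stages, and BAM2 differed by stage as deposited. The highest C3-C4 value, 19.5 RPM, was that of F. sonorensis, which had a juvenile library alone. In mature leaves the C4 and C4-like libraries measured 14.1 (F. brownii), 18.1 (F. trinervia), 23.4 (F. kochiana) and 25 RPM (F. bidentis), and the others 6.24 (F. cronquistii), 7.90 (F. angustifolia), 8.36 (F. pringlei) and 11.0 RPM (F. pubescens). Those groups did not overlap, which held in the same direction for 3.08% of loci tested, while in juvenile leaves they did. C4 against C3 gave 1.31 ± 0.33 on the log2 scale (SE, limma adjusted p = 0.0576), which passed with TMM scaling (1.44, adjusted p = 0.0319). Taking the C4 and C4-like species together, the difference from the rest was 0.78 ± 0.23 (adjusted p = 0.112).

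None of the 10 genes passed in limma for C4 against C3, where 1.27% of loci did (0.801% higher and 0.47% lower). At an unadjusted p under 0.05 there were 2, where 14.04% of all loci were, a share near that of the 10 genes. They were BAM2 and DPE1, the latter with 1.40 ± 0.53 on the log2 scale (adjusted p = 0.225). For C4-like against C3 the count was 0 where 0.2% of loci passed (0.152% higher and 0.0483% lower), with BAM2 and BAM3 at an unadjusted p under 0.05, as were 6.40% of all loci. For C3-C4 against C3 the count was 0 where 0% of loci passed, with BAM3 at an unadjusted p under 0.05, as were 5.14% of all loci. In the contrast of C4 and C4-like with the other species, the 8 genes besides BAM2 and BAM3 had differences between -0.45 and 0.71, with adjusted p from 0.440 to 0.952.

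Whether the stage difference itself varied with type was tested in the 7 paired species, on the difference between the stages of each. None of the 10 genes and 0% of the 14500 loci passed in limma. At an unadjusted p under 0.05 there were 1027 loci, 7.08% of those tested, among them SEX4 and BAM3. SEX4 went from 19.3 to 16.1 RPM in F. cronquistii, 17.8 to 9.61 in F. pringlei, 23.3 to 10.5 in F. angustifolia and 23.1 to 15.9 in F. pubescens, lower in the mature leaf of all 4. In F. brownii it went from 6.87 to 8.66 RPM, in F. bidentis from 4.60 to 5.0 and in F. trinervia from 4.20 to 14.3. Of these 3 only F. trinervia had stages whose 95% exact intervals did not overlap. F. bidentis had 39 reads at both stages and F. brownii 38 and 60, with overlapping intervals (3.27 to 6.29 and 3.56 to 6.84 RPM in F. bidentis, 4.86 to 9.42 and 6.61 to 11.1 RPM in F. brownii). The stage changes of these groups differed by 1.32 ± 0.42 on the log2 scale (SE, unadjusted p = 0.0094, limma adjusted p = 0.648), and by 0.86 without F. trinervia (adjusted p = 0.926). For BAM3 the same difference of stage changes was -1.0 ± 0.38 (SE, unadjusted p = 0.023, limma adjusted p = 0.649).

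F. pubescens was compared with the other 6 paired species because its starch and sucrose genes moved differently in earlier results of these data. The contrast was thus picked from the values it compares, so the difference in stage change is partly set by that choice. No gene passed the test of that difference in limma, and 0% of the tested loci did. With 1 species in the contrast, its spread is assumed to equal that of the others. The stage change in F. pubescens was 0.88 on the log2 scale for GWD1, 0.19 for DPE2, 0.56 for BAM4 and 0.10 for PWD. GWD1 and PWD were also higher in mature F. brownii (0.034 and 0.34), and BAM4 in mature F. bidentis (0.081). The difference from the other species was 1.71 ± 0.57 for GWD1 (adjusted p = 0.990) and 1.09 ± 0.43 for DPE2 (adjusted p = 0.990). Of the 10 genes 8 had a difference above 0, and the median was 0.90 beside -0.14 over all loci. The medians of other lists were also above 0, at 0.74 for starch synthesis, 0.73 for the leaf markers, 0.67 for the clock genes and 0.49 for the other starch breakdown genes. Only 2 senescence markers were tested, with a median of -2.28. In F. pubescens they went opposite ways, SAG12 from 1.61 to 0.559 RPM and SEN1 from 9.36 to 29.2 RPM.

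Some single libraries held values far from the rest. DPE2 was highest in F. cronquistii, with 288.9 RPM in the juvenile and 157.4 RPM in the mature leaf, and GWD1 and PWD of the juvenile leaf, at 256.1 and 79.1 RPM, were the highest juvenile values too. LHY, a morning gene of the circadian clock, was low in the same species, with 6.48 RPM in the juvenile and 7.70 RPM in the mature leaf. It was also low in juvenile F. pubescens (7.10 RPM) and F. angustifolia (8.60 RPM), whereas it reached 159.9 RPM in juvenile F. pringlei and 198.8 RPM in juvenile F. sonorensis. Juvenile F. sonorensis, with the highest LHY, had the lowest juvenile DPE2, GWD1 and PWD, at 57.0, 75.1 and 22.01 RPM. DPE2 in juvenile F. cronquistii, F. angustifolia and F. pubescens, all with low LHY, was 288.9, 157.1 and 94.1 RPM. The other juvenile libraries held 57.0 to 135.5 RPM. In mature leaves the same species had 157.4, 80.0 and 107.7 RPM, and the others 33.6 to 87.2 RPM. For GWD1 and PWD some libraries did not follow an order opposite to that of LHY. Juvenile F. pringlei, with the second highest LHY, had 157.9 RPM of GWD1 and 53.5 RPM of PWD, among the higher juvenile values, and juvenile F. pubescens, with low LHY, had 106.2 RPM of GWD1, among the lower ones. Genes of starch breakdown are known to cycle over the day in Arabidopsis, and the labels do not give the hour of sampling. LHY values fell into separate clusters, so no correlation is given, and the part of the sampling time in these results was not tested.

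**Figure D5:**
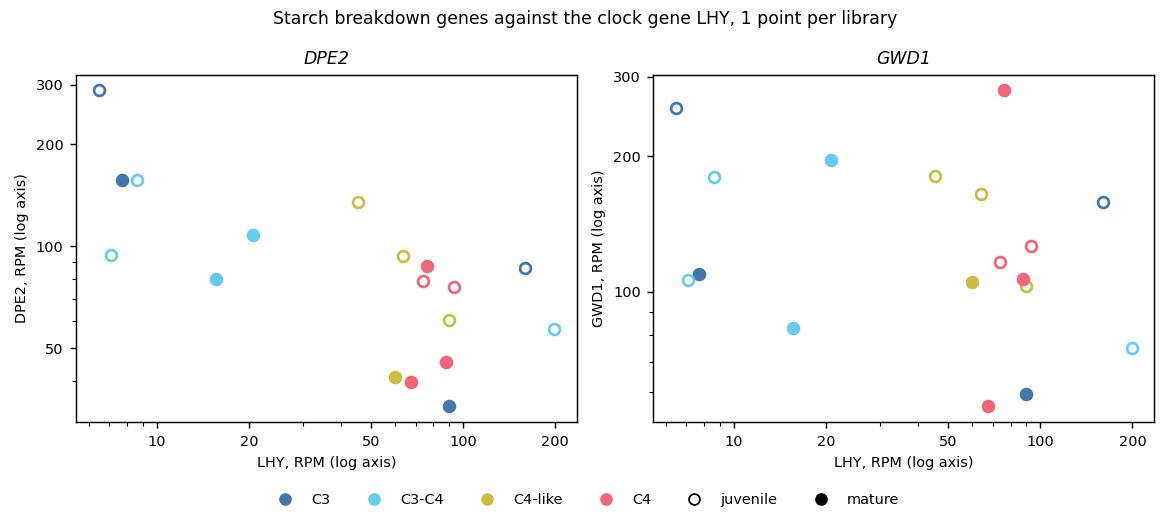
RPM of DPE2 and GWD1 against RPM of the clock gene LHY in the 18 libraries, on log axes. LHY falls into a low cluster of F. cronquistii, F. angustifolia and F. pubescens and a higher cluster of the other species, and DPE2 of F. cronquistii at 288.9 RPM is the highest value.

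Other genes of starch metabolism were read from lists by locus. Of 20 other genes of starch breakdown and maltose use, 18 were tested. In mature leaves 5 were higher and 8 lower in limma, where 12.7% of all loci were higher and 37.6% lower. With TMM scaling 7 were higher and 6 lower, where 3354 of 14500 loci were higher and 3188 lower. The median of the 18 genes was -0.42 beside -0.31 over all loci, and -0.077 with TMM scaling. AMY2, an alpha-amylase, rose by 3.41 ± 0.30 on the log2 scale (SE, adjusted p = 1.16e-05). BAM9, a noncatalytic beta-amylase relative, rose by 1.14 ± 0.30 (adjusted p = 0.00834). LDA, the limit dextrinase that cuts branch points, fell by 1.81 (adjusted p = 0.000546). PGLCT, the plastid glucose transporter, fell by 1.52 and PHS1, the plastid starch phosphorylase, by 1.41 (adjusted p = 0.000105 and 0.000107). ESV1, a starch granule protein, fell by 1.14 (adjusted p = 0.000356). All 6 passed with TMM scaling as well.

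Of 17 starch synthesis genes, 0 were higher and 4 lower in mature leaves, a smaller share than the 37.6% of all loci that were lower. Their median was -0.40 beside -0.31 over all loci. With TMM scaling 1 was higher and 1 lower, where 3354 of 14500 loci were higher and 3188 lower. The median of the 17 genes was then -0.084. ISA1, a debranching enzyme that shapes amylopectin, fell by 1.71 on the log2 scale (limma adjusted p = 2.65e-05) and was the one that also fell with TMM scaling. APL2, APL3 and APL1, large subunits of the enzyme that makes ADP-glucose, changed by -0.68, -0.54 and -0.43 as deposited. In the contrast of C4 and C4-like with the other species, APL2 was higher by 1.17 ± 0.25 (adjusted p = 0.0207), and it was the only one of the 17 to pass, while 0 of the 18 other breakdown genes did. Of 9 tested clock genes, PRR7 and ELF3 were lower in mature leaves as deposited (-0.74 and -0.62), and neither passed with TMM scaling, where PRR5 was higher by 0.86.

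Among themselves the 10 genes did not vary as a unit. Pearson r of log2(RPM + 1) over the 18 libraries, which share species in pairs, ran from -0.54 to 0.75 over the 45 pairs, given as a description. The closest pairs were BAM2 with DPE1 (0.75), GWD1 with DPE2 (0.74), GWD1 with PWD (0.65) and BAM1 with BAM3 (0.65). The last of these was 0.46 once the stage means were removed. Among the 6 pairs within the BAM family r ran from -0.30 to 0.65. Over all 14479 loci that passed the filter, the loci most like each gene, 2 per gene, had r between 0.76 and 0.95. The closest match to DPE1 was AT1G31650 (0.95), and that to BAM1 was AT3G14660 (0.93). No names for these loci were read from the files.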

How the data were processed

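The authors deposited 1 table of RPM, reads per 1e+06 assigned reads, for 20551 Arabidopsis loci in 18 Flaveria leaf libraries. TAIR10 was the build, per the submitters' processing notes. The sources used here name no aligner and no rule for counting reads or for reads that match more than 1 locus. In the deposited RPM values 100% were whole multiples of 1 read (tolerance 0.001 of a read), which gave totals of 5.40 to 9.15 M (1e+06) reads per library. All columns were used.

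The main test was limma 3.58.1 (R 4.3.3, statmod 1.5.0) on log2(RPM + 1), for loci whose mean reached 2 RPM, with Benjamini-Hochberg adjustment over all tested loci and a threshold of 0.05. Fold changes on this scale understate the change of low loci. Stage was tested in 14 libraries of 7 species, paired by the species in the labels. Deviations from the stage means correlated at 0.44 to 0.717 within species, and each of the 7 juvenile libraries correlated best with its own mature partner. Types were tested in 18 libraries with stage as covariate and species as random block (correlation 0.493). P-values for stage measure the spread of the stage change between species, not plants. Those for type rest on 18 libraries with 1 species correlation shared by all loci, so they mix the spread between and within species. Sign-flip tests were exact and two-sided. The fits were tested on simulated data.

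Alternatives were a pseudocount of 0.5, no filter, TMM scaling, no species block, 1 value per species, juvenile libraries alone, each species left out, and edgeR 4.0.16 on the recovered reads, where library totals were used without TMM. edgeR called 7104 loci for stage. Python 3.11.15, numpy 2.4.6, scipy 1.17.1, pandas 2.3.3 and matplotlib 3.10.9 did the rest. The members and lists were chosen with earlier results of these data known. Named genes were the 10 members, the 2 loci most like each, and up to 6 genes per starch or clock list and comparison that passed, by size of change.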

Additional observations from a re-analysis of the deposited data

Results flagged for a closer look

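In the 10 juvenile libraries DPE2 of F. cronquistii, at 288.9 RPM, lay far above the next value of 157.1 RPM, a gap of 0.568 of the whole range. In the 8 mature libraries MEX1 of F. bidentis, at 29.6 RPM, lay far above the next value of 15.8 RPM, a gap of 0.541 of the range. Chance alone marks about 1 in 20 such groups, and 30 groups were examined. The stage change of SEX4 had opposite signs in the groups of species, above 0 in all 3 C4 and C4-like species and below 0 in all 4 others, a difference of 1.32 on the log2 scale that did not pass the test (limma adjusted p = 0.648). It was 0.86 without F. trinervia, and in F. bidentis and F. brownii the 95% exact intervals of the stages overlapped.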

How the results depend on the processing

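Of the 10 genes, 7 passed for stage, 3 with TMM scaling, 2 with no replicate block, that is without the pairing by species, and 4 to 7 with 1 species left out (4 without F. pringlei). edgeR on recovered reads called 7. Of all 14500 loci 7291 passed for stage, 6542 with TMM scaling, 3840 with no block and 7104 in edgeR. Without F. pringlei 6023 of 14494 loci passed. For C4 against C3 the count of the 10 genes went from 0 to 1 with TMM scaling, where 174 of 14479 loci passed. For C4 and C4-like against the other species it was 0 to 1 with 1 species left out, and 0 without F. cronquistii or F. vaginata. For stage, TMM scaling reversed SEX4 to 0.22 and BAM4 to 0.14, neither past the threshold. SEX4 ranged from -0.38 to 0.063 with 1 species left out (0.063 without F. angustifolia, 0.021 without F. pringlei). The cause of these shifts was not tested. Over all loci, stage calls went from 7291 to 3840 without the block. Calls for C4 against C3 went from 184 to 33 with 1 value per species and 12 in juvenile leaves alone. Those for C4-like against C3 went from 29 to 46 with no filter and to 0 under both of the other settings, and those for C3-C4 against C3 from 0 to 10 with no filter. Those for C4 and C4-like against the others went from 203 to 76 with 1 value per species and 36 in juvenile leaves, and the F. pubescens contrast from 0 to 3 with no filter. With 1 species left out, calls for C4 against C3 were 38 to 261 (38 without F. cronquistii, 71 without F. bidentis, 78 without F. trinervia). Those for C4-like against C3 were 3 to 79 (3 without F. cronquistii, 12 without F. palmeri, 15 without F. vaginata, 79 without F. brownii). Those for C3-C4 against C3 were 0 to 19 (19 without F. pringlei, 5 without F. cronquistii, 3 without F. pubescens, 2 without F. sonorensis). Those for C4 and C4-like against the others were 83 to 413 (83 without F. cronquistii, 116 without F. angustifolia, 120 without F. bidentis, 124 without F. vaginata, 128 without F. palmeri, 413 without F. brownii). Depth limits SEX4 most, at 18 reads in its lowest library.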
